A study of Mus musculus with 4 samples.

Results

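Interferon-response and antigen-presentation genes were followed in epididymal adipose tissue, a depot of visceral fat, across wild type mice on a low-fat or a high-fat diet and CD1d-null mice on the low-fat diet. They are 38 named genes in 8 roles, from the MHC class II chains to the costimulatory molecules. Each gene was read from the probe set that the platform annotation gives to its symbol alone, and where there was more than 1, from that of highest mean across the 4 arrays. Of the 38 genes, 37 had such a probe set among the 18820 genes so read, and Ifi44 had none. A level is a log2 intensity, and a difference is between levels. The 33 members with a mean level of at least 5.45, the 40th percentile of all genes, are among the 11292 genes tested, and 4 members fell below it.

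Wild type mice were C57BL/6J, and the null allele of CD1d, written CD1d-/- in the labels, had been backcrossed to that strain for 10 to 12 generations. CD1d presents lipids to a class of T cells called NKT cells, which do not develop in its absence. Feeding began at 10 to 11 weeks of age and lasted 18 to 19 weeks, with 10 kcal% fat in the low-fat and 45 kcal% in the high-fat diet. RNA of 4 to 6 mice was pooled for a group, and 100 ng of RNA went into each labelling. There was 1 array of wild type low-fat, 1 of wild type high-fat and 2 of CD1d-null low-fat tissue, here KO array 1 and KO array 2. Whether each KO array held its own pool is not in the labels, so a p-value here reflects no more than the spread between these arrays, and that spread may be technical.

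Cells cut proteins with the proteasome, whose interferon-induced subunits form the immunoproteasome, the TAP transporter carries the peptides into the endoplasmic reticulum, and there they are loaded onto MHC class I with B2m. Professional antigen-presenting cells (macrophages, dendritic cells and B cells) load peptides from endosomes onto MHC class II, whose genes are switched on by the coactivator Ciita. Type I interferon acts on genes that carry the interferon-stimulated response element, which STAT2 and IRF9 help to bind, while interferon gamma acts on genes with the gamma-activated site. In adipose tissue these genes are read from adipocytes, macrophages, endothelial cells and other cells together.

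The promoters below show where letters of these elements stand in members whose levels are described further on. They come from RefSeq on build GRCm38.p6, which held promoters for 28 of the 38 members (34 promoters), and only the 250 bases before each start were searched. Capitals mark GAAANNGAA, the core of the interferon-stimulated response element (TTCNNTTTC on the other strand), in the antiviral genes Ifit1 and Ifit3, in Rsad2 and in the guanylate-binding protein gene Gbp2. The windows lie at chr19:34640765-34640828 (plus strand), chr19:34583359-34583450 (plus), chr12:26456548-26456586 (minus) and chr3:142620590-142620628 (plus).
Ifit1: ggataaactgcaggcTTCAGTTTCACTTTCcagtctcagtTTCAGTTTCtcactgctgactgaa
Ifit3: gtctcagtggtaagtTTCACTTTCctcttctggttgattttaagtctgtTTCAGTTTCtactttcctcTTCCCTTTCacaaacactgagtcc
Rsad2: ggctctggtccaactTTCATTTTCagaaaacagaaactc
Gbp2: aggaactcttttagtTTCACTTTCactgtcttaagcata

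Ifit1 and Ifit3 each held 3 matches, overlapping in Ifit1, and Rsad2 and Gbp2 each held 1. On either strand, 10 of the 34 member promoters (29.4%) had a match, against 7.13% of all 32851 promoters in the table. The other genes with a match were Isg15, Bst2, Gbp3, Ifih1, Stat2 and B2m.

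The gamma-activated site, TTCNNNGAA, is in capitals in the promoters of the transcription factor genes Irf8 (chr8:120736172-120736228, plus strand) and Irf1 (chr11:53769909-53769947, plus). It is shown because, of the tested members, Irf8 was farthest above and Irf1 farthest below the low-fat level on the high-fat array.
Irf8: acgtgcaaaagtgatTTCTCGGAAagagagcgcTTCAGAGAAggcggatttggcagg
Irf1: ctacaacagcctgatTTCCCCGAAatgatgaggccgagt

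This motif had matches in 5 of the 34 member promoters (14.7%), against 7.02% of all promoters, and the others were in Bst2, Psmb8 and Ifit2. In the MHC class II genes H2-Aa (chr17:34287852-34287889, minus strand) and H2-Eb1 (chr17:34305760-34305827, plus), capitals mark the Y box, CTGATTGG, and in H2-Eb1 also the core of the X box, AGNNACNGA. These boxes hold the factors through which Ciita acts.
H2-Aa: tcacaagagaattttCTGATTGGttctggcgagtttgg
H2-Eb1: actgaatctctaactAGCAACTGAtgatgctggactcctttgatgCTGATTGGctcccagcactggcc

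The Y box matched in 6 of the 34 member promoters (17.6%), against 3.83% of all, with the others in H2-Oa, Irf8, Psmb9 and Tap1. Psmb9 and Tap1 are read in opposite directions from neighbouring starts, and their match is the same bases, chr17:34187334-34187341. The X box core matched in 10 member promoters (29.4%) against 14.7% of all, and in Ifit1, Ifit3 and Gbp3 it overlapped the response element. A match describes letters only, and no factor's binding was measured.

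Cd1d1, the targeted gene, was at 11.80 on both wild type arrays and at 3.74 and 3.98 on KO arrays 1 and 2, low where the labels give the null allele. In limma its estimate was -7.95 (SE 0.32, adjusted p 0.00646), a call lost when no filter on level was used. Adipoq, the adipocyte hormone adiponectin, lay between 13.03 and 13.19 on all arrays. The wild type low-fat array also carried epididymal transcripts. The summed intensity of 8 epididymal markers was 14036 there, against 133.5 on the high-fat array and 239.9 and 917.1 on the KO arrays. KO array 1 stood apart in smooth muscle genes, with a summed intensity of 9320 over 6 markers against 4298 to 4559 on the other arrays. Measured against wild type low-fat, the median of all tested genes lay at 0.05 for the high-fat array, -0.17 for KO array 1 and -0.02 for KO array 2. The shift of KO array 1 bears on every comparison with it, so it was checked which directions turned once each array was centred on its median. The part of the epididymal and smooth muscle RNA in the results below was not tested.

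Most members were highest on the wild type high-fat array and lowest on KO array 1. Of the 33 tested members, 23 were highest on the high-fat array (background 44.0% of tested genes), or 18 with arrays centred (background then 23.4%), and 6 on KO array 2 (13.6%). Oas2 and Bst2 were highest on KO array 1 (14.4%), and Irf1 and Psmb9 on the low-fat wild type array (27.9%). The lowest level was on KO array 1 for 25 members (background 56.7%), or 18 with arrays centred (background then 28.1%). The low-fat wild type array was lowest for 6 (7.91%), KO array 2 for Irf1 and Psmb9 (23.7%) and the high-fat array for 0 (11.7%). The spans were small: the range over the 4 arrays had a median of 0.65 in the members and 0.43 in all tested genes. Irf8 had the widest range of the tested members, 1.32, and Psmb9 and B2m the narrowest, 0.09 and 0.10.

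**Figure D1:**
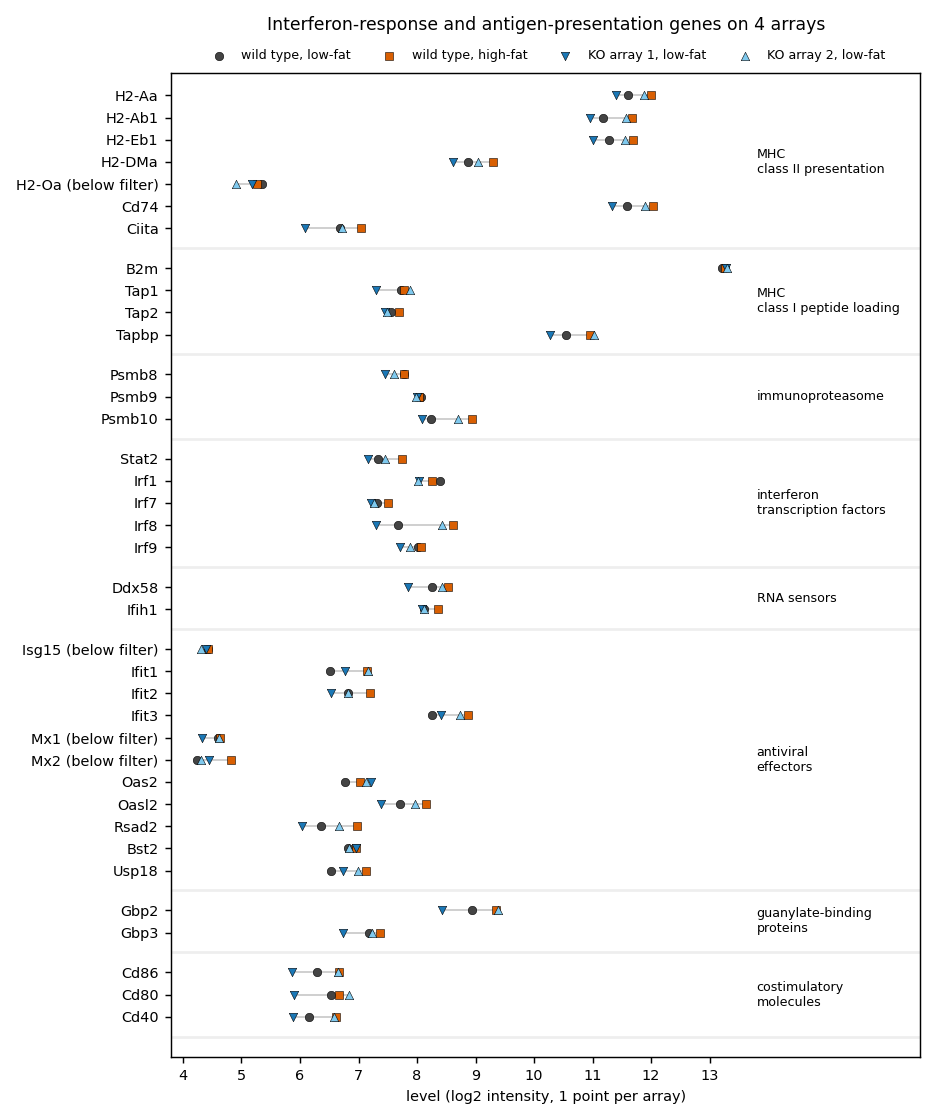
Levels (log2 intensity, horizontal axis) of the 37 members with a probe set, by role, with 1 point for each of the 4 arrays and a grey line from the lowest to the highest. For the 6 tested MHC class II genes the order is KO array 1, wild type low-fat, KO array 2, wild type high-fat. H2-Oa, below the filter, is lowest for KO array 2. Ifit1, Ifit3, Usp18 and Oas2 are lowest for wild type low-fat, and 4 members marked as below the filter stay under 5.4 on all arrays.

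All 6 tested MHC class II genes had the same order of arrays: KO array 1 lowest, then wild type low-fat, KO array 2 and wild type high-fat. KO array 1 stayed lowest and high-fat highest in all 6 after centring or quantile normalization. Over all tested genes KO array 1 was lowest in 56.7%, or 28.1% with arrays centred and 46.3% after quantile normalization. The high-fat array was highest in 44.0%, or 23.4% and 35.6%. With arrays centred, KO array 1 differed from wild type low-fat by -0.38 in Ciita and by -0.07 to -0.01 in the others. H2-Ab1, the beta chain of the class II molecule of C57BL/6 mice, was at 11.18 (low-fat) and 11.67 (high-fat) in wild type, and at 10.96 and 11.57 on KO arrays 1 and 2. Its partner H2-Aa, the alpha chain, was at 11.61 and 11.99 in wild type and at 11.40 and 11.87 on the KO arrays. The wild type low-fat level of both chains lay between those of the KO arrays.

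H2-Eb1, the beta chain of the I-E molecule, whose alpha chain is not made in C57BL/6 mice, was at 11.27 and 11.69 in wild type and at 11.00 and 11.54 in KO tissue. Cd74, the invariant chain that guards the class II groove, was at 11.58 and 12.04 in wild type and at 11.33 and 11.89 in KO tissue. The peptide-exchange chain gene H2-DMa was at 8.87 and 9.30, and at 8.61 and 9.05 on the KO arrays. These genes thus differed by similar amounts, from 0.38 to 0.49 between the diets and from 0.44 to 0.61 between the KO arrays.

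Ciita, the coactivator of class II genes, was at 6.68 and 7.04 in wild type and at 6.09 and 6.72 on the KO arrays. Its level on KO array 1 was 0.59 below the wild type low-fat array, past 1.5-fold, while KO array 2 was 0.04 above it. H2-Oa, a chain of the H2-O molecule that restrains peptide exchange in B cells, was below the filter on mean level, at 5.36, 5.27, 5.18 and 4.91. Its order was unlike that of the other class II genes, with KO array 2 lowest.

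MHC class I genes did not share 1 pattern. B2m, the light chain of class I and of CD1d itself, spanned 0.10 over the arrays, at 13.21 and 13.26 in wild type and 13.27 and 13.30 in KO tissue. Tapbp, the tapasin gene that bridges class I to the transporter, was at 10.54 and 10.95 in wild type and at 10.27 and 11.02 in KO tissue. It spanned 0.75, with KO array 2 highest and KO array 1 lowest, whereas B2m changed its highest and lowest arrays with centring.

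The transporter genes themselves spanned 0.57 (Tap1) and 0.23 (Tap2) over the arrays, less than Tapbp and more than B2m. Tap1 was at 7.73 and 7.78 on the wild type arrays and at 7.30 and 7.87 on the KO arrays. Tap2 was at 7.55 and 7.69 and at 7.46 and 7.48, so the KO arrays were 0.57 apart in Tap1 and 0.02 in Tap2, and the latter difference turned sign with centring.

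The immunoproteasome subunits also parted. Psmb10 was at 8.23 (low-fat) and 8.93 (high-fat) in wild type, 1.63-fold higher, and at 8.09 and 8.69 on the KO arrays. Psmb8 was at 7.78 on both wild type arrays and at 7.46 and 7.61 in KO tissue. Psmb9, whose gene adjoins Tap1, was at 8.07, 8.02, 8.00 and 7.98. Only Psmb10 of the 3 subunits was 1.5-fold apart in either comparison.

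Among the transcription factors, Irf8, a factor of the macrophage and dendritic cell lineage, differed most. It was at 7.68 (low-fat) and 8.62 (high-fat) in wild type, 1.91-fold higher, and at 7.30 and 8.42 on KO arrays 1 and 2, 2.17-fold apart. The wild type low-fat and KO array 1 levels were low and the other arrays high.

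Irf1, induced by interferon gamma, went otherwise: 8.39 and 8.26 in wild type and 8.04 and 8.02 in KO tissue. Both KO arrays lay below both wild type arrays, although with arrays centred KO array 1 was above the high-fat array. The KO mean was 8.03 ± 0.01 (SD, n = 2). Its second probe set, not used for these values, gave 5.12 and 5.0 in wild type and 4.97 and 4.83 in KO tissue, the same order of groups at lower levels.

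The factors of the type I interferon pathway differed less than Irf8, with ranges of 0.57 (Stat2), 0.36 (Irf9) and 0.28 (Irf7). Stat2 was at 7.33 and 7.74 in wild type and at 7.17 and 7.44 in KO tissue. Irf9, its partner, was at 8.02 and 8.07 and at 7.71 and 7.88, and Irf7, which amplifies interferon production, at 7.31 and 7.5 and at 7.22 and 7.26. Irf9 was below the low-fat wild type array on both KO arrays, whereas Irf7 was below it on both only without centring.

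The RNA sensors differed in size. Ddx58, the sensor RIG-I, was at 8.25 and 8.54 in wild type and at 7.85 and 8.42 in KO tissue. Ifih1, the sensor MDA5, was at 8.12 and 8.36 and at 8.08 and 8.12. Both were highest on the high-fat array, and Ddx58 lowest on KO array 1, as was Ifih1 until the arrays were centred.

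The antiviral effectors split by their lowest array. Ifit1, which binds foreign RNA caps, was at 6.52 (low-fat) and 7.14 (high-fat) in wild type and at 6.77 and 7.17 on the KO arrays. Its neighbour Ifit3 was at 8.26 and 8.87 and at 8.41 and 8.74, and Usp18, the protease that removes ISG15 and damps interferon signalling, at 6.53 and 7.12 and at 6.73 and 6.99. In these 3 genes the wild type low-fat array was lowest, and the high-fat array was 1.51-fold to 1.54-fold above it.

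Oas2, a synthetase that activates RNase L, was at 6.76 and 7.02 in wild type and at 7.21 and 7.13 in KO tissue, both KO arrays being above both wild type arrays. Bst2, the virus-tethering protein tetherin, was at 6.81 and 6.96 and at 6.96 and 6.84. These were the only tested members highest on KO array 1, to which Tap2, Psmb9 and B2m were added by centring.

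The remaining effectors followed the order of the class II genes. Rsad2, the antiviral enzyme viperin, was at 6.36 and 6.97 in wild type and at 6.04 and 6.67 in KO tissue. Oasl2 was at 7.70 and 8.16 and at 7.39 and 7.97, and Ifit2 at 6.82 and 7.19 and at 6.52 and 6.83. Rsad2 was past 1.5-fold between the diets and between the KO arrays, at 1.53 and 1.55. With arrays centred its differences were 0.55 and 0.44, both below 1.5-fold.

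The last 3 effectors were below the filter. Mx1, defective in C57BL/6 mice, was at 4.59 and 4.63 in wild type and at 4.32 and 4.62 in KO tissue, and Mx2 at 4.23 and 4.82 and at 4.45 and 4.31. The probe set annotated to Isg15, the ubiquitin-like modifier, was at 4.43, 4.43, 4.40 and 4.31. Probe set identifiers largely run along chromosomes, with 94.8% having a neighbour in identifier order on the gene's own chromosome. Isg15, a gene of chromosome 4, was the only 1 of the 37 members that did not: its neighbours were annotated to chromosome 17. Whether this probe set reads Isg15 was not tested, so its flat level is not read as that of the gene.

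Gbp2, a guanylate-binding protein induced by interferon gamma, was at 8.95 and 9.35 in wild type and at 8.43 and 9.38 in KO tissue, 1.92-fold apart between the KO arrays. Gbp3 was at 7.18 and 7.37 and at 6.74 and 7.23. In both genes the wild type low-fat level lay between those of the KO arrays.

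All 3 costimulatory genes, whose products on antigen-presenting cells activate T cells, differed by 1.5-fold or more between the KO arrays. Array 2 was the higher in each (background 14.8%). With arrays centred 2 of the 3 passed, without Cd40 (background then 8.0%). Cd80 was at 6.53 and 6.67 in wild type and at 5.90 and 6.84 in KO tissue, 1.93-fold apart. Cd86 was at 6.29 and 6.67 and at 5.87 and 6.65, and Cd40 at 6.15 and 6.62 and at 5.89 and 6.58. The second probe set of Cd80 gave 5.81 and 5.64 in wild type and 5.38 and 5.81 in KO tissue. KO array 1 was again lowest there, but the high-fat array was below the low-fat array. The KO arrays were less than 1.5-fold apart in that probe set.

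The diet comparison, wild type high-fat against wild type low-fat, has 1 array a group and no replicate check. High-fat levels were 1.5-fold higher or more for 6 of 33 members (background 7.72% of tested genes), and 0 of 33 were as far lower (background 3.82%). The 6 were Irf8, Psmb10, Ifit1, Rsad2, Ifit3 and Usp18, of which all but Irf8 lay between 1.51-fold and 1.63-fold. After centring the arrays on their medians 2 members passed, Irf8 and Psmb10 (background then 6.12%). After quantile normalization 3 passed, these 2 and Ifit1 (6.67%). Above 0 by any amount were 31 of the 33 (background 58.2%), with Irf1 and Psmb9 below, joined after centring by B2m, Tap1, Psmb8 and Irf9.

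The median difference was 0.38 in the members and 0.05 in all tested genes. By role, the median was 0.53 for the 8 tested antiviral effectors, 0.43 for the 6 tested class II genes, 0.38 for costimulation, 0.30 for the guanylate-binding proteins and 0.27 for the RNA sensors. It was 0.20 for the transcription factors and 0.10 for class I loading. The immunoproteasome median, 0.00, turned to -0.04 and -0.07 after quantile normalization and centring.

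The comparison of CD1d-null with wild type tissue on the low-fat diet asks how tissue of mice without CD1d differed. No tested member passed limma's test: 0 of 33, against 5 of 11292 genes (background 0.0443%), and 0 of 33 had an unadjusted p under 0.05, as did 92 of all tested genes. The members' estimates ran from -0.36 for Irf1 to 0.45 for Ifit1, with standard errors from 0.31 to 0.51. The adjusted p was 1 for each member in limma. Leaving out a KO array left no residual degree of freedom in this fit.

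The wild type low-fat level of 21 of 33 members lay above KO array 1 and below KO array 2 (background 37.1%), and none the other way round, so 21 lay between the KO arrays (background 49.7%). Above wild type low-fat were 6 members on KO array 1 (background 22.4%) and 27 on KO array 2 (background 46.8%). Neither a 1.5-fold rise nor a 1.5-fold fall was shared by the KO arrays for any of the 33 (backgrounds 0.584% and 0.77%). On KO array 1 alone, Cd80 and Ciita were 1.5-fold lower and no member as far higher (backgrounds 5.02% lower and 1.93% higher). On KO array 2 alone, Irf8 and Ifit1 were 1.5-fold higher and no member as far lower (backgrounds 5.54% higher and 4.6% lower). The members' median was -0.26 for KO array 1 and 0.26 for KO array 2, or -0.08 and 0.28 beyond that of all tested genes.

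Some members lay on 1 side of wild type on both KO arrays. Above it were 6 (background 9.74%): Ifit1, Ifit3, Usp18, Oas2, Bst2 and B2m, joined after centring by Psmb10, Stat2 and Ifih1. The first 5 are antiviral effectors, of 8 tested, and none of that role lay below. Both KO arrays are compared here with the single wild type low-fat array, and the backgrounds are those without centring. Below wild type low-fat were 6 (background 40.5%): Irf1, Irf9 and Psmb8, and, until the arrays were centred, Irf7, Psmb9 and Tap2. The largest of these was Ifit1, with a KO mean of 6.97 ± 0.28 (SD, n = 2) against 6.52, and Oas2 had 7.17 ± 0.05 (SD, n = 2) against 6.76. Neither passed limma's test, with an unadjusted p of 0.236 and 0.235.

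The KO pair shows the spread on which that test rests. By 1.5-fold or more, 10 of 33 members were higher on KO array 2 than on array 1 (background 14.8%), and 0 were as far lower (background 4.45%). Higher by any amount were 29 (background 64.3%), or 23 with arrays centred (background then 45.2%). The members whose difference turned were B2m, Tap2, Psmb8, Irf7, Irf9 and Ifih1, which array 1 then held higher. The 10 were Irf8, Cd80, Gbp2, Cd86, Tapbp, Cd40, Rsad2, Ciita, H2-Ab1 and Psmb10, and 4 passed after centring the arrays (background then 8.0%). The median difference was 0.48 in the members and 0.14 in all tested genes, with the widest role medians in costimulation (0.78), the guanylate-binding proteins (0.72) and class II (0.55). The medians of the immunoproteasome, 0.15, and of the transcription factors, 0.17, turned to -0.04 and -0.02 after centring.

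The diet comparison and the KO pair share no array. Past 1.5-fold in both were Irf8, Psmb10 and Rsad2, 50% of the 6 members higher with high fat and 30% of the 10 higher on KO array 2. In all tested genes the 680 shared genes (background 6.02%) were 78% and 40.6% of the corresponding lists. With arrays centred, and with quantile normalization, 1 member was past 1.5-fold in both, Irf8 (backgrounds 4.26% and 5.14%).

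**Figure D2:**
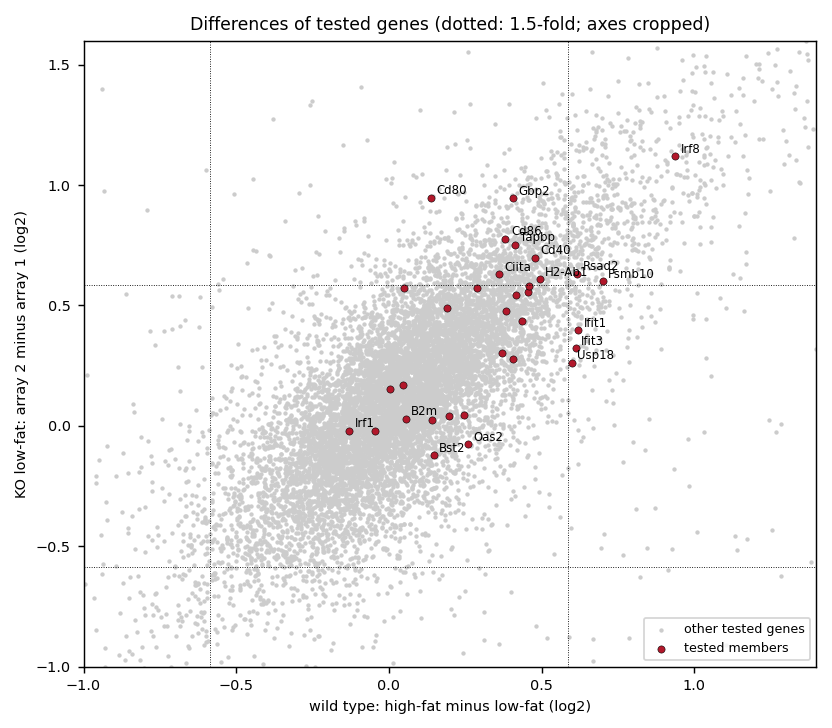
Difference between the wild type arrays (high-fat minus low-fat, horizontal axis, log2) against the difference between the KO arrays (array 2 minus array 1, vertical axis, log2), for the 33 tested members in red and other tested genes in grey, with axes cropped and dotted lines at 1.5-fold. Irf8, Psmb10 and Rsad2 lie past both lines, Ifit1, Ifit3 and Usp18 past the diet line only, and Cd80, Gbp2 and Cd86 past the KO line only.

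Markers of macrophages differed alongside the members. Of 10 macrophage markers, 6 were 1.5-fold higher with high fat (background 7.72%), and 7 on KO array 2 than on array 1 (background 14.8%). In each comparison 1 marker was lower, by less than 1.5-fold. The summed intensity of the 10 was 8778 (low-fat) and 15437 (high-fat) in wild type and 7123 and 14249 on KO arrays 1 and 2. Adgre1, the macrophage marker F4/80, was at 8.83, 10.22, 8.23 and 9.95, and Itgax, the integrin CD11c, at 6.43, 9.45, 5.72 and 8.72. Of 7 genes of CD11c-positive, lipid-associated macrophages, 6 were 1.5-fold higher with high fat, and all 4 tested markers of proliferating cells were (background 7.72%). In bulk tissue, fewer cells of a type and less RNA per cell cannot be told apart. The part of macrophage RNA in the members' differences was not tested.

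Dendritic cells and B cells also carry class II. Of the 7 tested dendritic cell markers, Clec9a alone was 1.5-fold higher with high fat (background 7.72%). Between the KO arrays 3 were 1.5-fold higher on array 2 (background 14.8%) and 1 lower (background 4.45%). Their summed intensity over 10 genes ran from 994.3 to 1316. Of 3 tested B cell markers, 0 were 1.5-fold apart between the diets (backgrounds 7.72% higher and 3.82% lower). Between the KO arrays 1 was 1.5-fold higher on array 2 (background 14.8%). The summed intensity of 7 B cell genes ran from 393.9 to 492.1. Of the dendritic cell and B cell markers, Flt3, Xcr1, Itgae, Pax5, Blk, Fcer2a and Cr2 were below the filter. All 7 tested markers of T, NKT and NK cells were lower with high fat (background 41.8%), by a median of -0.24. Of these, 6 were also below wild type low-fat on both KO arrays (background 40.5%). The 8 adipocyte markers had a median difference of 0.02 between the diets. Among them, 1, the leptin gene Lep, was 1.99-fold higher with high fat and 1.96-fold higher on KO array 2 than on array 1. The 8 endothelial markers had a median difference of -0.04 between the diets. The part of these cell types in the members' differences was not tested.

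**Figure D3:**
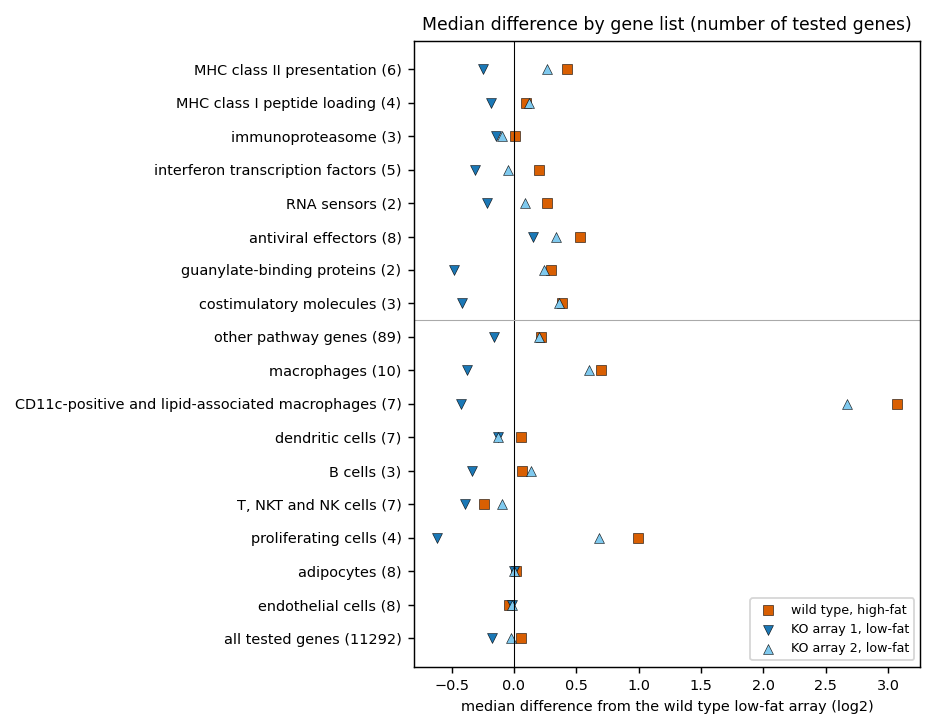
Median of each gene list relative to wild type low-fat (log2 difference, horizontal axis), with the number of tested genes in brackets and 1 point each for the wild type high-fat array, KO array 1 and KO array 2. All 3 points use the same wild type low-fat array; the role medians lie between -0.48 and 0.53, macrophage markers at 0.70, -0.38 and 0.60, and CD11c-positive macrophage genes reach 3.08.

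The other genes of these pathways were described from lists of 130 genes, of which 107 had a probe set and 89 were tested. Of the 89, 13 were up and 2 down by 1.5-fold or more with high fat. Between the KO arrays 24 were higher and 2 lower on array 2, and 0 differed from wild type low-fat by 1.5-fold on both. The shares higher were 14.6% and 27.0%, beside the same backgrounds as the members'. Their median difference between the diets was 0.22, against 0.38 in the members. No gene of these lists passed limma's test in KO against wild type.

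Of the other class II genes, those of endosomal processing had the widest ranges. Ctss, cathepsin S, which degrades the invariant chain, was at 8.47 and 10.31 in wild type and at 8.13 and 10.07 in KO tissue, 3.57-fold apart between the diets. Ifi30, the thiol reductase of antigen processing, was at 9.0 and 10.10 and at 8.85 and 9.90, and the protease gene Lgmn at 10.18 and 11.15 and at 9.91 and 10.98. H2-Ob, partner of H2-Oa, was at 6.53 and 6.67 and at 5.82 and 6.77.

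In class I presentation, 0 of 16 genes were 1.5-fold apart between the diets (backgrounds 7.72% higher and 3.82% lower). H2-K1, H2-M3 and Calr were 1.5-fold higher on KO array 2 than on array 1 (18.8%, background 14.8%). With arrays centred, Calr alone was (6.25%, background then 8.0%). The class I heavy chain H2-K1 was at 11.35 and 11.76 in wild type and at 11.08 and 11.71 in KO tissue. The chaperone gene Calr was at 11.54 and 11.90 and at 11.17 and 12.00, Canx at 11.67 and 11.85 and at 11.30 and 11.88, and H2-M3 at 6.78 and 7.11 and at 6.41 and 7.11. All 4 were lowest on KO array 1, also with the arrays centred. Of all 16 genes, 11 were lowest there (background 56.7%), or 5 with arrays centred (31.2%, background then 28.1%).

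The interferons themselves were low. Ifng was at 4.36 and 4.28 in wild type and at 4.55 and 4.42 in KO tissue, and Ifnb1 at 3.59, 3.52, 3.55 and 3.32, all below the filter. Of the 5 tested receptor genes, Il10rb, a receptor subunit shared by interferon lambda and interleukin 10, was 1.70-fold higher on the high-fat array, at 9.44 and 10.20 in wild type and at 9.11 and 10.03 in KO tissue. Ifnar1 was at 8.68 and 8.90 and at 8.34 and 8.82, and Ifnar2 at 10.80 and 11.19 and at 10.59 and 11.16. Ifngr2, of the interferon gamma receptor, was at 10.49 and 10.74 and at 10.38 and 10.70. The receptor genes of type I interferon thus spanned 0.56 and 0.60, and Ifngr2 0.36.

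Among signalling genes, 4 of 16 were up and 1 down by 1.5-fold with high fat (backgrounds 7.72% and 3.82%). Tlr7, an endosomal RNA receptor, was at 6.52 and 7.68 in wild type and at 6.51 and 7.63 in KO tissue, and Irf5, a factor downstream of it, at 7.28 and 8.20 and at 7.21 and 8.06. The kinase gene Ikbke was at 6.33 and 7.28 and at 6.19 and 6.83, and Dhx58, the RIG-I-like receptor LGP2, at 5.80 and 6.63 and at 5.76 and 6.17. The gene that was down was Irf4, at 7.43 and 6.80 in wild type and at 7.31 and 6.65 in KO tissue, named after its values were seen.

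Of 44 other interferon-induced genes tested, 4 were up and 1 down by 1.5-fold with high fat, while 9 were higher and Ifitm1 lower on KO array 2 than on array 1. The shares higher were 9.09% and 20.5%, beside backgrounds of 7.72% and 14.8%. Lgals3bp, a secreted galectin-binding protein, was at 10.77 and 11.80 in wild type and at 10.26 and 11.73 in KO tissue, and Eif2ak2, the kinase PKR, at 7.01 and 7.59 and at 6.47 and 7.48. Gbp7 was at 7.99 and 8.28 and at 7.30 and 7.89. Iigp1, an interferon-inducible GTPase, was at 7.41 and 7.09 and at 6.43 and 6.89, highest on the wild type low-fat array. Down with high fat, and named like Ifitm1 after the values were seen, was Isg20, an exonuclease, at 10.22 and 9.40 in wild type and at 9.69 and 9.50 in KO tissue.

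Of the 4 tested costimulatory and adhesion genes outside the members, Cd48 was at 7.71 and 8.47 in wild type and at 7.41 and 8.32 in KO tissue. Cd83, a maturation marker of dendritic cells, was at 8.09 and 8.24 and at 7.15 and 8.04. Icam1 was at 6.94 and 7.33 and at 6.49 and 7.18, and Icosl at 6.62 and 7.06 and at 6.36 and 6.88. All 4 were lowest on KO array 1 (background 56.7%) and highest on the high-fat array (background 44.0%). With arrays centred all 4 remained so (backgrounds then 28.1% and 23.4%).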

How the data were processed

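Per the submitters' processing notes, RMA in R 2.15.0 made the values. What the authors deposited is a linear intensity for each of 35556 probe sets on every array, so its log2 was taken, and nothing was normalized further. For the probe sets, the genome build is not given in the sources used here. A single gene is named by the platform annotation for 21218 probe sets, several for 1881 and none for 12457. Unmapped value columns numbered 0.

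Genes at or above the 40th percentile of mean level were tested. KO against wild type was fitted in limma 3.58.1 (R 4.3.3) with 3 group means, leaving 1 residual and 4.62 prior degrees of freedom. Tests were two-sided at a Benjamini-Hochberg adjusted 0.05, and the spread of the KO pair stood for that of the single wild type arrays. The steps were tested on simulated data. Comparisons of 2 arrays are by size, at 1.5-fold. Alternatives covered the filter, the probe set rule, the scaling, the variance model, the fold and each KO array left out.

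Named were every member, the 4 tested genes of widest range in each other pathway list, Cd1d1 and some cell type markers. Among the markers, Clec9a and Lep were named for being past 1.5-fold, and others for being below the filter. The interferon genes Ifng and Ifnb1, below the filter, were also named. Irf4, Ifitm1 and Isg20 were chosen after their values were seen. The members, lists and motifs were chosen with earlier results of these data known. With 4 arrays, their number limits the precision.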

Additional observations from a re-analysis of the deposited data

How the results depend on the processing

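The count of members past limma's threshold in KO against wild type was 0 in the main setting and in all 9 alternatives run, with the lowest adjusted p from 0.595 to 1. Over all genes it was 5, and 0 with no filter, 2 with a filter at the 60th percentile, 3 with the mean of probe sets, 3 after quantile normalization and 1 with both wild type arrays as 1 group. In that last fit, leaving out a KO array gave 0 to 1. Members 1.5-fold higher on the high-fat array numbered 6, and 3 under the stricter filter, 3 after quantile normalization, 2 with arrays centred and 0 at 2-fold. Those higher on KO array 2 than on KO array 1 numbered 10, and 5 under the stricter filter, 4 with arrays centred and 1 at 2-fold. Members higher in both of these comparisons numbered 3, and 1 after quantile normalization and 1 with arrays centred, a count added after the data were seen. Members 1.5-fold from wild type on both KO arrays numbered 0 higher and 0 lower, and leaving out a KO array gave 0 to 2 of each. The members' median for the KO mean minus wild type was -0.02, which turned to 0.0002 after quantile normalization and to 0.0899 with arrays centred, and leaving out a KO array gave -0.26 to 0.26. Members highest on KO array 1 numbered 2, and 0 under the stricter filter and 5 with arrays centred. With 100 bases searched before the start, 4 member promoters had a match for the response element (11.8%, against 2.53% of all promoters). For the gamma-activated site 2 had a match (5.88%, against 2.55%), and for the X box core 5 (14.7%, against 5.6%). By design, a shorter window or a higher fold can only keep or lower a count, and the stricter filter tests 23 members. With a KO array left out, the condition on both KO arrays rests on 1 array. The cause of the other changes was not tested. No paired analysis was possible because the wild type groups have 1 array each, so no replicate number is shared by 2 pairs. Counts of members lowest on KO array 1, 25 in the main setting and added after the data were seen, ran from 18 to 26.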
